A study of Homo sapiens with 8 samples.

Results

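Small nuclear RNAs (snRNAs) are made, trimmed, capped, packed with proteins and, where faulty, destroyed by a set of dedicated protein complexes. The 56 genes described here encode 5 subunits of SNAPc, the factor that starts transcription at snRNA promoters, 14 subunits of Integrator (INTS1 to INTS14), the cap-binding proteins NCBP1 and NCBP2 with the export adaptor PHAX, the 7SK particle proteins LARP7, MEPCE and HEXIM1 with La (SSB), the assembly and maturation factors GEMIN2, GEMIN4, GEMIN5, TGS1 and TOE1, 13 genes of the RNA exosome, 11 LSM genes and SLBP. They were chosen by gene symbol, with earlier results of these data known. The 56 genes are among 63816 entries of the expression table, of which 39568 were above 0 in at least 1 sample, and 62 entries carry 1 of their symbols because INTS3 has 2 entries and LSM2 has 6. For these 2 genes the entry with the highest mean was used. Only GEMIN2, GEMIN4 and GEMIN5 of the SMN complex were among the 56, and INTS15, which the table lists as C7orf26, is described with the other genes of the pathway.

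The 8 RNA-seq samples were of Caco-2, an established line from a human colorectal adenocarcinoma that the study describes as lacking Siglec-XII. In 4 samples the cells carried the vector pcDNA3.1 without insert, and in 4 they carried pcDNA3.1 with full-length SIGLEC12, the gene of Siglec-XII, a cell surface protein of the Siglec family that in humans does not bind sialic acid. The cells of both groups had been transfected and then selected with G418. Because the groups were transfected and selected separately, an effect of Siglec-XII cannot be told apart from a difference between 2 selected populations. It is not known whether the 4 samples of a group were separate cultures, since the methods of the study speak of technical replicate libraries and the description of the series of 3 cultures where 4 samples are listed. Every SD and p-value therefore measures only the spread between these libraries. SIGLEC12 itself was 0.17, 0.12, 0.10 and 0.06 on the log2(TPM + 1) scale in empty vector replicates 1 to 4, and 10.68, 10.63, 10.76 and 10.75 in Siglec-XII replicates 1 to 4. The groups differed by 10.59 (exact two-sided permutation p = 0.0286, as low as 70 labellings allow), as the labels state. TPM is transcripts per 1000000 and is set per transcript length, so levels of different genes can be compared on it.

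The labelled cell type was checked against marker lists. Of 15 intestinal genes, 12 averaged below 1 TPM in both groups, among them VIL1, CDH17 and HNF4A, with KRT20 listed at 0 in every sample. In contrast, CDX1 averaged 139 TPM in the empty vector group and 156 TPM in the Siglec-XII group, and CDX2 37.3 and 43.9 TPM. Most of the intestinal genes checked were thus near or at 0, against the label, and the samples are called Caco-2 here because the labels do. The 5 general epithelial genes were all above 1 TPM. Of 14 genes typical of trophoblast, 9 reached 1 TPM in both groups, of which GATA3, HSD3B1, VGLL1 and TFAP2C averaged 402, 344, 180 and 158 TPM with the empty vector. ERVW-1, ERVFRD-1 and PSG1 averaged only 1.4, 1.33 and 1.35 TPM there. CGA, CGB3, CGB5, CGB8 and LEP averaged below 1 TPM in both groups. Of the fibroblast genes 5 of 7 reached 1 TPM in both groups, and of the blood genes 1 of 4. The summed level of the epithelial list ran from 8257 to 9230 TPM with the empty vector and from 9840 to 10217 TPM with Siglec-XII, and that of the intestinal list from 164 to 187 TPM and from 191 to 216 TPM. The trophoblast sums were 1041 to 1186 TPM and 1055 to 1110 TPM, the fibroblast sums 70.7 to 86.8 TPM and 83.2 to 89.1 TPM, and the blood sums 0.963 to 1.62 TPM and 0.72 to 1.88 TPM. The part of these differences in the results below was not tested. In bulk RNA, fewer cells of a type and less RNA per cell cannot be told apart.

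Most spliceosomal snRNAs, U1, U2, U4 and U5 among them, are transcribed by RNA polymerase II from promoters bound by SNAPc, cut at the 3′ end by Integrator, bound at the cap by NCBP1 and NCBP2 and exported by PHAX. In the cytoplasm the SMN complex, with its GEMIN proteins, closes a ring of Sm proteins around the Sm site, and TGS1 then adds methyl groups to the cap. U6 and 7SK are made by RNA polymerase III and end in a run of U, which La binds first. On mature U6 the LSM2 to LSM8 ring takes its place, while 7SK is held by LARP7, capped by MEPCE and bound by HEXIM1, which inhibits the elongation kinase P-TEFb. The RNA exosome, with RBM7 and ZCCHC8 as parts of an adaptor complex, removes extended and faulty transcripts.

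Sequences on which some of these steps act are printed as DNA letters, 5′ to 3′, from the GENCODE transcripts on GRCh37, because they show the elements that name the complexes. RNU1-1, a U1 gene of 164 nt on the minus strand at chr1:16840617-16840780, is given with the core of its Sm site in capitals. The 7SK gene, 331 nt on the plus strand at chr6:52860418-52860748, is shown for its first 100 bases with each GATC in capitals. These are the letters of the motif that HEXIM1 binds, and not every one marked need be bound.
U1 (RNU1-1): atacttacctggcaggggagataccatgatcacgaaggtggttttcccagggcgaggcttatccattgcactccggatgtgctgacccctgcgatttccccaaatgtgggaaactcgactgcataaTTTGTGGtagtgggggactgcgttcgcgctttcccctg
7SK, first bases: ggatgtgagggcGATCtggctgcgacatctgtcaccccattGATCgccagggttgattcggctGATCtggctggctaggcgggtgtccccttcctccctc

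TTTGTGG began at base 127 of U1, and GATC began at bases 13, 42 and 64 of 7SK. Searched on the transcribed strand only, TTTGTGG was present in 81 (5.23%) of 1550 annotated snRNA transcripts of 100 to 200 bases. GATC, which reads the same on both strands, was present in 22.2% of the first 100 bases of 250364 annotated transcripts, and at least 3 times in 0.285% of them. The motifs did not overlap each other. The U1 gene printed has 7 entries of identical sequence in the table, so reads cannot be assigned to 1 copy.

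Of the 56 genes, all passed the filter of at least 1 TPM in at least 4 samples, and none passed the test between the groups (limma, adjusted p under 0.05 over 15590 entries), against 0.648% of all entries tested. The adjusted p ran from 0.0978, for HEXIM1, to 0.971, with a median of 0.628. At an unadjusted p of 0.05 or less stood 7 genes, or 12.5% of the 56, against 16.5% of all entries and 18.1% of the 12081 protein-coding ones. Of these, 5 were higher with Siglec-XII (INTS11, HEXIM1, MEPCE, SNAPC2 and NCBP1), where 13.9% of all entries were, and 2 were lower (EXOSC8 and LSM8), where 2.61% were. The groups did not overlap in 3 genes, HEXIM1, NCBP1 and INTS3, or 5.36% of the 56, against 10.8% of all entries and 12% of protein-coding entries. These shares were near or below the background of the table. With quantile normalization 2 genes were higher and 6 lower, or 14.3% of the 56 against 12.6% of all entries. Without Siglec-XII replicate 2, 3 genes stood at this p, or 5.36% against 14.5%. With 1 sample left out, 4 to 7 genes did not overlap, where 13.4% to 19.3% of all entries did not.

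The differences, Siglec-XII minus empty vector on the log2(TPM + 1) scale, on which folds are also given, were small. They ran from -0.26 for LSM8 to 0.27 for SNAPC2, with standard errors of 0.05 to 0.16, and their median was 0.04, against 0.07 over all entries tested. In 39 of 56 genes (69.6%) the mean was higher with Siglec-XII, as it was in 68.1% of all entries, and with quantile normalization in 23 of 56. The 95% interval of the difference lay within 0.25 either way, a 1.19-fold change, in 23 genes and within 0.5, a 1.41-fold change, in 53 genes. The lowest bound of any gene was -0.50, for LSM8, and the highest was 0.51, for SNAPC2 and INTS9. These bounds cover the spread between these libraries only.

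**Figure D1:**
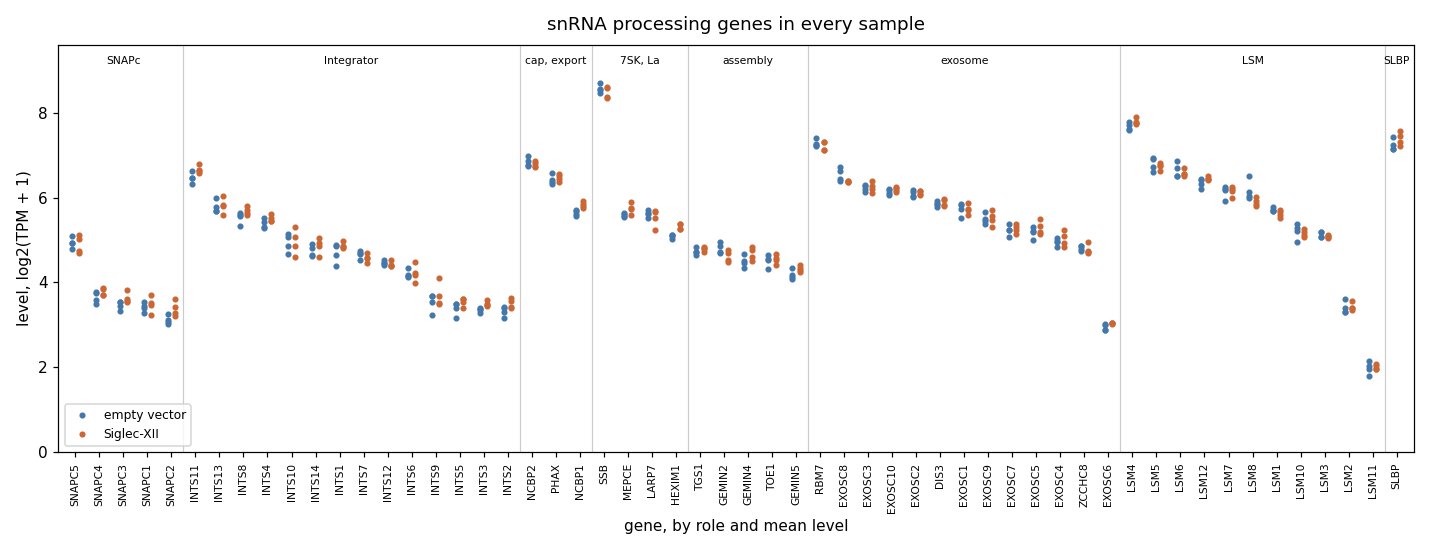
Level of each of the 56 genes in every sample, in log2(TPM + 1) on the y axis, ordered by role and by mean level on the x axis. Blue points are the 4 empty vector samples and orange points the 4 Siglec-XII samples. SSB was the highest gene at a mean of 367 TPM and LSM11 the lowest at 3.01 TPM, and the groups overlap in all genes but HEXIM1, NCBP1 and INTS3.

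**Figure D2:**
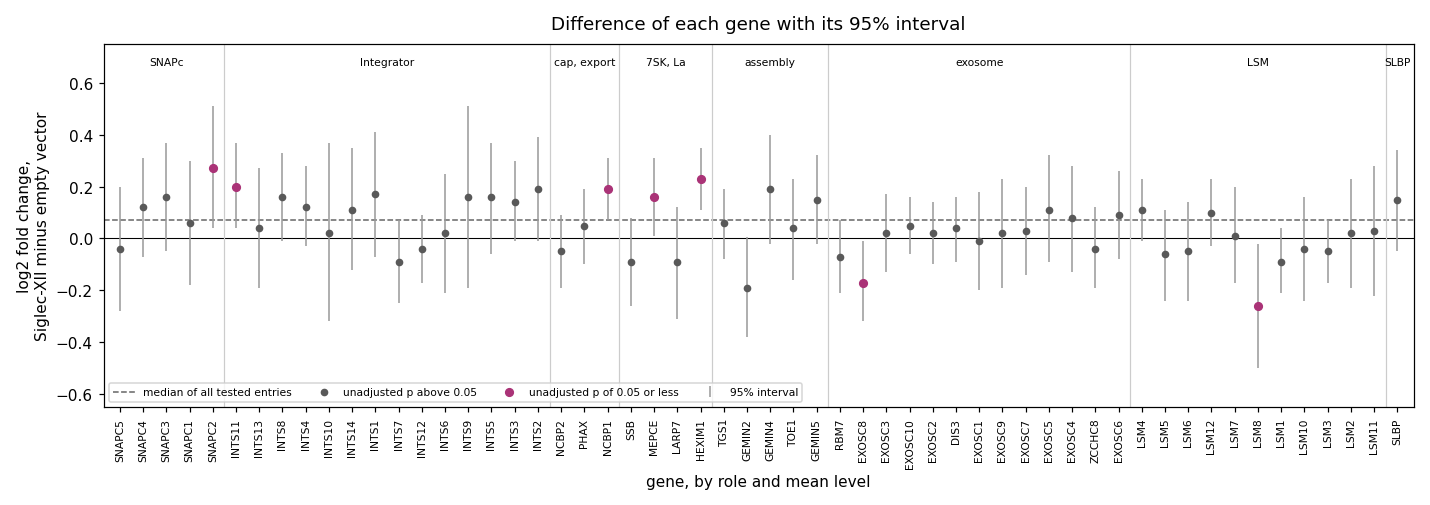
Difference of each gene, Siglec-XII minus empty vector, on the log2 scale (y axis), in the order of the plot of levels (x axis), with its 95% interval as a bar. Purple points mark the 7 genes at an unadjusted p of 0.05 or less, grey points the others, and the dashed line is the median of all tested entries, 0.07. The differences lie between -0.26 and 0.27.

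SNAPc binds the proximal element of snRNA promoters through SNAPC4, SNAPC1 and SNAPC3. Its 5 genes had a median difference of 0.12, and 4 of 5 (80%) were higher, against 68.1% of all entries. Under every alternative tried 3 were higher, a count that was not made over all entries. The median was 0.04 with the length trend removed, 0.06 with quantile normalization and 0.07 without empty vector replicate 1. SNAPC2, a subunit that joins through SNAPC4, was the lowest of the 5 at a mean of 8.59 TPM. Its levels with the empty vector were 3.03, 3.25, 3.11 and 3.06, and with Siglec-XII 3.29, 3.43, 3.20 and 3.62. The groups overlapped only because Siglec-XII replicate 3 lay under empty vector replicate 2. The difference was 0.27, with a 95% interval of 0.04 to 0.51 (limma, unadjusted p = 0.0281, adjusted p = 0.244). SNAPC5, the smallest subunit, was the most abundant at 29.4 TPM. Its levels were 5.09, 4.94, 4.93 and 4.80 with the empty vector and 5.03, 4.75, 5.12 and 4.70 with Siglec-XII, fully intermixed, and it was the only SNAPc gene with a negative difference, -0.04. SNAPC1, SNAPC3 and SNAPC4 differed by 0.06, 0.16 and 0.12, each with an interval that included 0.

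Integrator joins an RNA endonuclease module, built on INTS4, INTS9 and INTS11, to a shell, a phosphatase-binding module and others, and it cuts snRNA precursors. Its 14 genes had a median difference of 0.13, and 12 of 14 were higher with Siglec-XII, the exceptions being INTS7 at -0.09 and INTS12 at -0.04, and 9 of the 14 were higher under every alternative tried. With the trend of the difference against transcript length removed, the Integrator median was 0.06, and with quantile normalization also 0.06. Levels ran from 9.71 TPM for INTS2 to 94.4 TPM for INTS11, so subunits of the same complex differed widely in mRNA level.

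INTS11, the endonuclease, lies on the minus strand at chr1:1246965-1260067 and has 17 exons, and its exons share bases with PUSL1 on the opposite strand. Its levels were 6.46, 6.32, 6.63 and 6.47 with the empty vector and 6.66, 6.80, 6.62 and 6.59 with Siglec-XII. Empty vector replicate 3 overlapped the Siglec-XII samples, and the other empty vector samples lay below all of them. The difference was 0.20, with an interval of 0.04 to 0.37 (limma, unadjusted p = 0.0191, adjusted p = 0.217). INTS9, the inactive partner of INTS11, differed by 0.16 with the widest interval of the complex, -0.19 to 0.51, and INTS4, the scaffold of the cutting module, differed by 0.12 with an interval of -0.03 to 0.28.

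INTS3, a subunit also found in a single-stranded DNA-binding complex, did not overlap between the groups. Its levels were 3.28, 3.37, 3.40 and 3.34 with the empty vector and 3.48, 3.47, 3.44 and 3.58 with Siglec-XII, but the gap between the nearest samples was small. The difference was 0.14, with an interval of -0.01 to 0.30 (limma, unadjusted p = 0.0653, adjusted p = 0.337). Its 2 entries held identical values, so its TPM was divided between them, and their sum averaged 18.4 TPM in the empty vector group and 20.5 TPM in the Siglec-XII group. INTS2, the subunit of lowest level, was 3.16, 3.31, 3.42 and 3.39 with the empty vector and 3.57, 3.43, 3.40 and 3.63 with Siglec-XII. Only Siglec-XII replicate 3 fell among the empty vector samples, and the difference was 0.19 (limma, unadjusted p = 0.0654, adjusted p = 0.337). INTS8, of the phosphatase-binding module, differed by 0.16 and INTS1, the largest subunit, by 0.17, and the intervals of both included 0. INTS5, INTS14, INTS13, INTS10 and INTS6 differed by 0.16, 0.11, 0.04, 0.02 and 0.02.

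**Figure D3:**
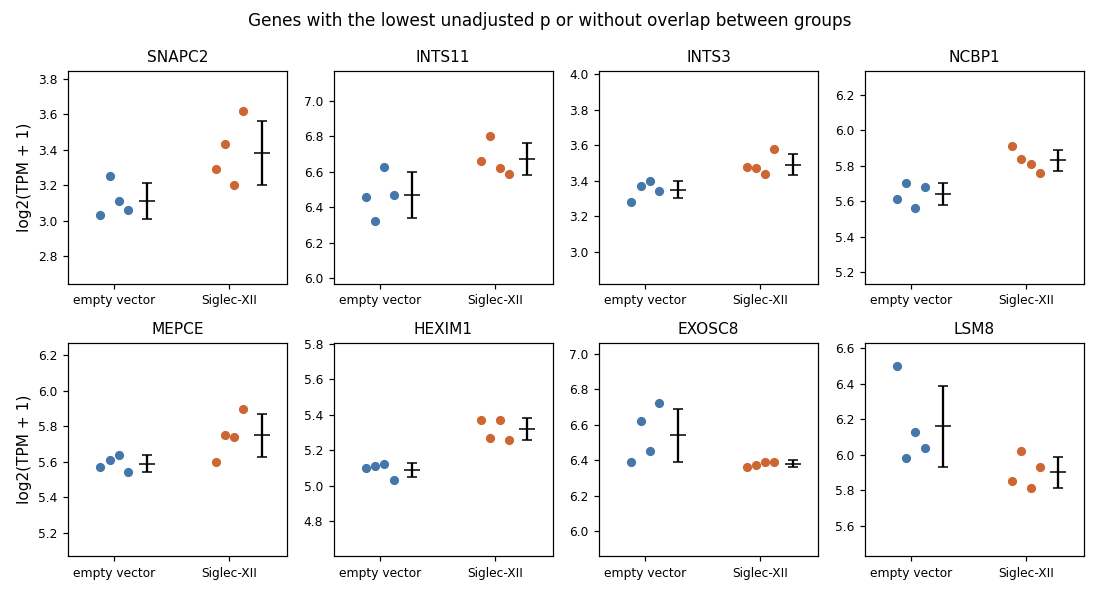
Levels in log2(TPM + 1) (y axis, a range of the same width in each panel) of the 7 genes at an unadjusted p of 0.05 or less and of INTS3, in the 4 empty vector samples (blue) and the 4 Siglec-XII samples (orange) on the x axis. Black bars are the group mean and SD (n = 4). Groups are apart in HEXIM1, NCBP1 and INTS3, and the SD of EXOSC8 is 0.15 in the first group and 0.02 in the second.

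Among the genes of cap binding and export, NCBP1, the large subunit of the nuclear cap-binding complex, was separated between the groups. It lies on the plus strand at chr9:100395950-100436030 with 23 exons that share no bases with another gene. Its levels were 5.61, 5.70, 5.56 and 5.68 with the empty vector and 5.91, 5.84, 5.81 and 5.76 with Siglec-XII, so every Siglec-XII sample was above every empty vector sample. The difference was 0.19, or 1.14-fold, with an interval of 0.07 to 0.31 (limma, unadjusted p = 0.00505, adjusted p = 0.138). The small subunit NCBP2, which holds the cap itself, was more abundant, at a mean of 112 TPM against 52.4 TPM for NCBP1. NCBP2 was 6.99, 6.74, 6.87 and 6.76 with the empty vector and 6.87, 6.75, 6.82 and 6.72 with Siglec-XII, a difference of -0.05 with intermixed samples. PHAX, which links the capped snRNA to the exporter, differed by 0.05 with an interval of -0.10 to 0.19.

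HEXIM1, which binds GAUC elements of 7SK and holds P-TEFb inactive, had the lowest p of the 56 genes. It is a gene of 1 exon on the plus strand at chr17:43225842-43229466, and its exon shares bases with HEXIM2-AS1 on the opposite strand. Its levels were 5.10, 5.11, 5.12 and 5.03 with the empty vector and 5.37, 5.27, 5.37 and 5.26 with Siglec-XII. The groups were apart, with an SD of 0.04 and 0.06 within them. The difference was 0.23, or 1.17-fold, with an interval of 0.11 to 0.35 (limma, unadjusted p = 0.00145, adjusted p = 0.0978), so it did not pass. MEPCE, the enzyme that caps 7SK, was 5.57, 5.61, 5.64 and 5.54 with the empty vector and 5.60, 5.75, 5.74 and 5.90 with Siglec-XII. Siglec-XII replicate 1 lay among the empty vector samples and the others above them. The difference was 0.16, with an interval of 0.01 to 0.31 (limma, unadjusted p = 0.0377, adjusted p = 0.274).

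The genes of the proteins that hold the 3′ end of 7SK gave mRNA differences in the other direction that were within their error. LARP7, the La-related protein of the particle, differed by -0.09 with an interval of -0.31 to 0.12. SSB, which encodes La and was the most abundant of the 56 genes at 367 TPM, was 8.70, 8.53, 8.46 and 8.57 with the empty vector and 8.60, 8.38, 8.58 and 8.34 with Siglec-XII. Its samples were intermixed, and the difference was -0.09 with an interval of -0.26 to 0.08. The 4 genes of the 7SK particle and La were thus split, with 2 higher and 2 lower and a median of 0.04, which was -0.03 with equal upper quartiles. HEXIM1, at 36 TPM, was the lowest of the 4 and LARP7 and MEPCE averaged 46.8 and 50.1 TPM.

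The genes of assembly, cap and 3′ trimming were all between 18.1 and 26.1 TPM, the narrowest range of the roles with several genes. GEMIN2, the protein that binds the open Sm ring, was 4.71, 4.70, 4.86 and 4.95 with the empty vector and 4.48, 4.53, 4.76 and 4.70 with Siglec-XII. The difference was -0.19, with an interval of -0.38 to 0.0045 (limma, unadjusted p = 0.0545, adjusted p = 0.313), and the groups overlapped. GEMIN4 and GEMIN5, the latter the subunit that recognises snRNAs, differed by 0.19 and 0.15, with intervals of -0.02 to 0.40 and -0.02 to 0.32. GEMIN5 had the lowest level, 4.08, 4.34, 4.17 and 4.12 with the empty vector and 4.41, 4.25, 4.30 and 4.35 with Siglec-XII. Only empty vector replicate 2 reached into the Siglec-XII samples. TGS1, the cap methylase and the highest of the 5, was 4.72, 4.84, 4.65 and 4.72 against 4.83, 4.72, 4.82 and 4.79, a difference of 0.06. TOE1, a nuclease that trims snRNA 3′ ends, differed by 0.04.

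The RNA exosome is a barrel of 9 subunits to which the nucleases EXOSC10 and DIS3 attach. Its 13 genes, with the adaptors RBM7 and ZCCHC8, had a median difference of 0.02, but the median was -0.04 with quantile normalization. Of the 13, 9 (69.2%) were higher with Siglec-XII, against 68.1% of all entries. Their median absolute difference was 0.04, against 0.11 over all entries tested. Their median level was 52.3 TPM and their median standard error 0.07, against 13.7 TPM and 0.10 over all entries, so noise differed too. EXOSC1, a cap subunit of the barrel, had the smallest difference of all 56 genes, -0.01 with an interval of -0.20 to 0.18. Its levels were 5.53, 5.83, 5.84 and 5.74 with the empty vector and 5.74, 5.70, 5.59 and 5.88 with Siglec-XII. EXOSC3, another cap subunit, was 6.29, 6.28, 6.21 and 6.14 against 6.39, 6.28, 6.20 and 6.12, a difference of 0.02 with an interval of -0.13 to 0.17. In both genes the samples of the groups were fully intermixed.

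EXOSC8, a ring subunit without catalytic activity of its own, was the exception among the exosome genes. It lies on the plus strand at chr13:37572953-37600018 with 11 exons, some of which share bases with SUPT20H on the opposite strand. Its levels were 6.39, 6.62, 6.45 and 6.72 with the empty vector and 6.36, 6.37, 6.39 and 6.39 with Siglec-XII. The Siglec-XII samples lay together at the lower edge of the empty vector samples, which were spread over a wider range. The difference was -0.17, with an interval of -0.32 to -0.01 (limma, unadjusted p = 0.0433, adjusted p = 0.288), and without empty vector replicate 4 it was -0.11. The other 5 genes of the hexameric ring, EXOSC4, EXOSC5, EXOSC6, EXOSC7 and EXOSC9, differed by 0.08, 0.11, 0.09, 0.03 and 0.02.

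The levels of exosome mRNAs were uneven. EXOSC6, a ring gene with 1 exon, had the lowest level, 6.97 TPM, and was 3.03, 2.99, 2.89 and 2.87 with the empty vector and 3.05, 3.03, 3.04 and 3.04 with Siglec-XII. RBM7, the RNA-binding subunit of the nuclear adaptor, had the highest, 152 TPM, more than its partner ZCCHC8 at 26.8 TPM. RBM7 was 7.24, 7.41, 7.22 and 7.27 with the empty vector and 7.31, 7.12, 7.32 and 7.13 with Siglec-XII, a difference of -0.07 with intermixed samples. EXOSC10, DIS3 and EXOSC2 were the most closely bounded, with standard errors of 0.05 and differences of 0.05, 0.04 and 0.02.

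The LSM proteins form rings that share LSM2 to LSM7. With LSM8 the ring is nuclear and binds U6, with LSM1 it is cytoplasmic and acts in mRNA decapping, and LSM10 and LSM11 belong to the U7 particle that processes histone mRNA. The 11 LSM genes had a median difference of -0.04, and 5 of 11 (45.5%) were higher with Siglec-XII, against 68.1% of all entries. With quantile normalization the median was -0.11. LSM8 was 6.50, 5.98, 6.13 and 6.04 with the empty vector and 5.85, 6.02, 5.81 and 5.93 with Siglec-XII. It lies on the plus strand at chr7:117824198-117844089 with 4 exons, and no exon base is shared with another gene. Empty vector replicate 1 was the highest sample and Siglec-XII replicate 2 lay above empty vector replicate 2. The difference was -0.26, or 0.834-fold, with an interval of -0.50 to -0.02 (limma, unadjusted p = 0.0353, adjusted p = 0.267), and without empty vector replicate 1 it was -0.15.

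LSM1, the cytoplasmic counterpart, differed by -0.09 with an interval of -0.21 to 0.04. The level of LSM8 minus that of LSM1 was 0.73, 0.30, 0.46 and 0.34 with the empty vector (0.46 ± 0.19 on average, SD, n = 4). In the Siglec-XII samples it was 0.27, 0.36, 0.09 and 0.41 (0.28 ± 0.14 on average, SD, n = 4), so the means differed by -0.17 with overlapping samples, by -0.08 without empty vector replicate 1 and by -0.11 without Siglec-XII replicate 3. Of the shared ring, LSM7 had the smallest difference, 0.01 with an interval of -0.17 to 0.20. LSM7 was 5.92, 6.20, 6.25 and 6.17 with the empty vector and 6.15, 6.20, 6.0 and 6.25 with Siglec-XII. LSM4, the most abundant LSM gene at 213 TPM, was 7.60, 7.63, 7.72 and 7.78 with the empty vector and 7.75, 7.74, 7.79 and 7.89 with Siglec-XII. Its 0.11 difference had an interval of -0.01 to 0.23. LSM3, LSM5, LSM6 and LSM2 differed by -0.05, -0.06, -0.05 and 0.02.

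LSM2 is listed with 6 entries, 5 of them with identical values, and its summed level was 55 TPM with the empty vector and 55.7 TPM with Siglec-XII, where the single entry used averaged 9.71 TPM. LSM11 was the lowest of the 56 genes at 3.01 TPM, with levels of 1.80, 2.03, 1.97 and 2.14 with the empty vector and 1.96, 1.97, 2.04 and 2.08 with Siglec-XII. LSM10, its partner in the U7 particle, stood at 35.5 TPM and differed by -0.04. SLBP, which binds the stem-loop at the end of histone mRNA, averaged 159 TPM. It was 7.43, 7.14, 7.25 and 7.15 with the empty vector and 7.56, 7.32, 7.46 and 7.21 with Siglec-XII, a difference of 0.15 with an interval of -0.05 to 0.34. LSM12, which stands outside the rings, differed by 0.10.

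The role groups with several genes differed in their medians, from -0.04 for LSM to 0.13 for Integrator, and also in transcript length. The canonical transcripts of Integrator genes had a median length of 3215 nt, those of exosome genes 1813 nt and those of LSM genes 2214 nt. Over all tested coding entries the median difference was -0.01 for transcripts under 1000 nt, 0.04 from 1000 to 2000 nt, 0.07 from 2000 to 4000 nt and 0.10 from 4000 nt on. In the same bins the 6, 13, 22 and 15 genes described here had medians of 0.02, 0.02, 0.06 and 0.09. With the length trend removed, the median over the 56 genes was -0.01, over Integrator 0.06 and over LSM -0.07, and over all entries 0.01. Whether length accounts for the spread between the roles was not tested further. At an unadjusted p of 0.05 or less, 2 genes were then higher and 5 lower, in place of 5 and 2, as also with equal upper quartiles. These 12.5% of the 56 genes stood against 12.3% of all entries with the length trend removed and 12.9% with equal upper quartiles. Both shares take the directions together. The share of all entries that was lower was not taken with these settings, so the lower genes have no background of their own.

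**Figure D4:**
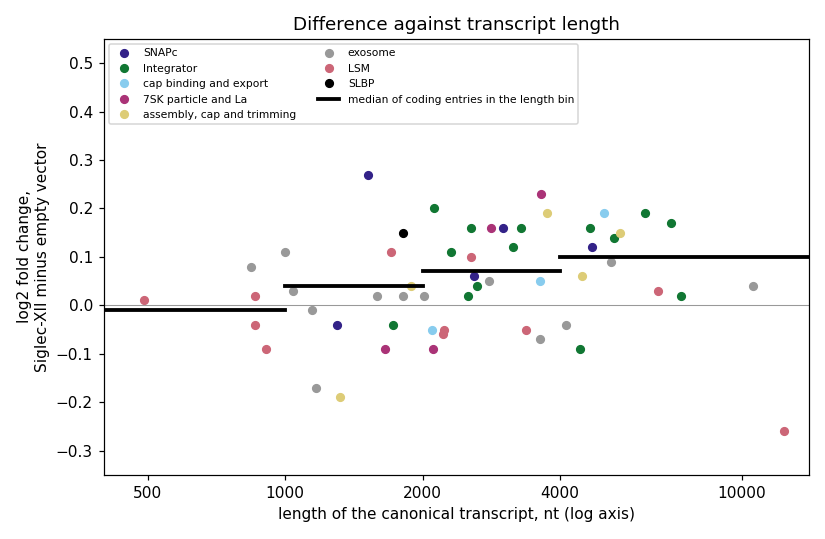
Difference of each of the 56 genes, Siglec-XII minus empty vector on the log2 scale (y axis), against the length of its canonical transcript in nt (x axis, log scale), coloured by role. Black lines are the median of all tested coding entries in each length bin, which goes from -0.01 under 1000 nt to 0.10 from 4000 nt on. LSM8, at 12384 nt, lies farthest below the line of its bin.

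The RNAs handled by these proteins were read from the same table as sums of TPM over all entries of a family, compared by two-sided exact permutation tests with adjustment over 9 families. Entries were taken by name, pseudogene names such as those starting with RN7SKP included. Above 0 were 40 entries for U1, 279 for U6 and 55 for 7SK, so a sum is not the level of the functional RNA alone. The RNAs are short, exist in many near-identical copies and mostly lack a poly(A) tail. The sources also differ on whether the kit selected poly(A) RNA, so these sums are less certain than the mRNA levels. The U1 sum was 8.28, 7.92, 8.01 and 7.94 with the empty vector and 6.41, 5.64, 5.77 and 5.33 with Siglec-XII, on the log2(TPM + 1) scale. The difference was -2.25 and the groups were apart (exact p = 0.0286, the smallest possible, adjusted 0.0857). The printed U1 gene, read as a single entry, was 4.71, 4.46, 4.22 and 4.31 with the empty vector and 2.56, 1.71, 0 and 1.64 with Siglec-XII. The U5 sum, with a mean of 5.21 ± 0.63 (SD, n = 4) against 3.96 ± 0.70 (SD, n = 4), was also apart, by -1.26 (exact p = 0.0286, adjusted 0.0857).

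For U6, which the LSM2 to LSM8 ring binds, the sum over entries did not show a difference beyond its spread. Its sum was 10.05, 10.18, 10.04 and 10.04 with the empty vector and 10.11, 9.82, 10.28 and 9.81 with Siglec-XII, which differed by -0.07 (exact p = 0.571, adjusted 0.643). U2 differed by -1.05 with overlapping groups (exact p = 0.0571, adjusted 0.129), and U4 by -0.94, a value set by Siglec-XII replicate 1, which was listed at 0 while the other Siglec-XII samples were 4.70, 5.11 and 4.84, and without it U4 differed by 0.28. U7, U11 and U12, of the histone and minor spliceosome particles, differed by 0.58, 0.93 and -1.06 with overlapping groups and samples listed at 0 in U11 and U12. The U7 value rested on empty vector replicate 1, at 2.42, without which it was -0.07. Without empty vector replicate 2, U11 differed by 1.80 and U12 by -0.61.

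The 7SK sum was 6.02, 5.78, 6.02 and 5.79 with the empty vector and 5.09, 4.96, 4.83 and 5.19 with Siglec-XII. The groups did not overlap, and their means differed by -0.88 (exact p = 0.0286, adjusted 0.0857). The printed 7SK gene was 5.81, 5.36, 5.78 and 5.45 with the empty vector and at or within rounding of 0 in all Siglec-XII samples, while other 7SK entries held the remaining TPM. Such a value at 0 can be an estimate in which reads were given to similar entries, which was not tested. Only 1 entry has the sequence of the printed gene, and the 55 entries above 0 held 51 distinct sets of values. Whether the single entry or the sum is nearer to the level of functional 7SK was not tested. HEXIM1, at 0.23, and MEPCE, at 0.16, stood higher in the same samples, and SSB and LARP7 at -0.09 each stood lower. No relation between these RNAs and the mRNAs of the proteins was tested, and the samples hold no protein measurement.

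**Figure D5:**
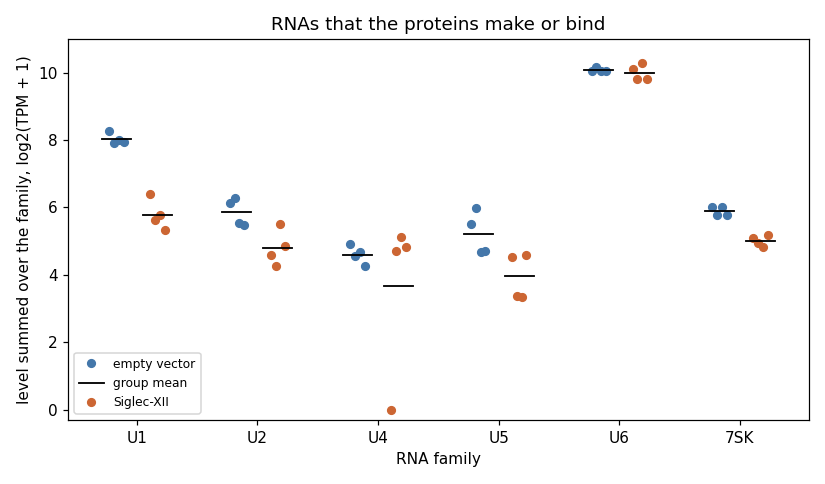
Summed level of 6 RNA families, in log2(TPM + 1) of the TPM summed over all entries of the family, pseudogene entries included (y axis). The 4 empty vector samples are blue and the 4 Siglec-XII samples orange, by family on the x axis. Black lines are group means. The groups are apart in U1, U5 and 7SK and overlap in U2, U4 and U6, and Siglec-XII replicate 1 is at 0 in U4.

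Other genes of the pathway, by a list of 77 names of which 72 were found and tested, gave a like picture. None passed (limma, adjusted p under 0.05). At an unadjusted p of 0.05 or less 7 were higher and 3 lower, together 13.9% of the 72, against 16.5% of all entries. Of all entries, 13.9% were higher and 2.61% lower at this p. The groups did not overlap in 6 genes (8.33%), against 10.8% of all entries. The 10 genes became 5 without replicate 1 of either group, where 13.5% (empty vector) and 14.2% (Siglec-XII) of all entries stood at this p. They became 6 without Siglec-XII replicate 2, where 14.5% of all entries did. The median difference of the 72 was 0.07, as over all entries, and 48 of 72 (66.7%) were higher, against 68.1% of all entries. SNRPG, a protein of the Sm ring that GEMIN2 binds, had the lowest p. It was 9.21, 8.99, 8.95 and 9.13 with the empty vector and 8.81, 8.61, 8.86 and 8.65 with Siglec-XII, without overlap. The means differed by -0.33 with an interval of -0.50 to -0.16 (limma, unadjusted p = 0.00148, adjusted p = 0.0978). The 17 SMN complex and Sm genes split into 8 higher and 9 lower, and their median was -0.02. GEMIN6, another SMN complex gene, was 4.56, 4.62, 4.65 and 4.75 against 4.81, 4.82, 4.87 and 4.79, without overlap. Its means differed by 0.18 (limma, unadjusted p = 0.0108, adjusted p = 0.178).

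HNRNPA1, which binds 7SK once P-TEFb is released, was also apart, at 11.08, 10.94, 10.94 and 10.92 against 10.89, 10.82, 10.86 and 10.79, a difference of -0.13 (limma, unadjusted p = 0.0243, adjusted p = 0.233). TUT1, which adds U to the 3′ end of U6, was 4.01, 4.32, 4.19 and 4.09 against 4.27, 4.30, 4.61 and 4.43, and USB1, which trims that end, was 5.24, 5.41, 5.45 and 5.24 against 5.50, 5.60, 5.35 and 5.64. Both overlapped between the groups, with differences of 0.25 and 0.19 and unadjusted p of 0.0288 and 0.0407 (limma, adjusted p = 0.246 and 0.282). SRRT, a partner of the cap-binding complex, was 7.43, 7.32, 7.41 and 7.32 against 7.60, 7.42, 7.47 and 7.48. LSM14B, an LSM-domain protein outside the rings, was 6.44, 6.51, 6.58 and 6.50 against 6.67, 6.62, 6.60 and 6.59, and ERI1, a nuclease of histone mRNA ends, was 4.01, 4.28, 4.03 and 4.02 against 4.33, 4.22, 4.30 and 4.20. These 3 genes differed by 0.13, 0.11 and 0.18, with adjusted p of 0.254, 0.266 and 0.294 (limma), and of them only LSM14B did not overlap between groups. C7orf26, which is INTS15, differed by 0.16 (limma, unadjusted p = 0.0501, adjusted p = 0.304).

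Several genes share exon bases with a neighbour, which bears on how reads were assigned. Of the 56 genes, 8 shared exon bases with a gene on the same strand and 18 with a gene on the opposite strand, 24 genes in all, and 32 shared none. NCBP1, SNAPC2 and LSM8 are among the 32. HEXIM1, INTS11 and EXOSC8 overlap a gene on the opposite strand, MEPCE one on the same strand, and INTS3 both. Whether the counting used strand is not given in the sources used here, so those 5 levels may hold reads of the neighbour.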

How the data were processed

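RNA-seq was analysed from 8 Caco-2 samples, grouped by their titles into 4 empty vector and 4 Siglec-XII samples. The authors quantified the reads with kallisto (0.45.0 per the submitters' processing notes, an earlier version per the methods) on build hg19 and deposited log2 values, log2(TPM + 1), for 63816 gene entries. The labels name a total-RNA kit that depletes rRNA and the methods a stranded mRNA kit. The labels give about 25000000 to 40000000 reads per sample, but each column sums to 1000000 TPM, so the counts behind a value are unknown and no counting interval or count test was possible. In each sample, 15513 to 15934 entries were at or above 1 TPM.

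Groups were compared on the deposited log2 values with limma 3.58.1 in R 4.3.3 (lmFit, eBayes with a mean-variance trend, Benjamini-Hochberg adjustment) over the 15590 entries with at least 1 TPM in at least 4 samples, using group as the only term, after the script was tested on simulated data. The study's count test could not be used, because the table holds no counts. Intervals are 95% intervals of the fit. SIGLEC12 and the RNA family sums were compared by two-sided exact permutation tests. Positions, transcript lengths and RNA sequences came from GENCODE 44 lifted to GRCh37, matched by the gene and transcript in each entry. A repeated symbol was taken from its entry of highest mean. A further RNA sequence is not reported here. Sequences were read and figures drawn in Python 3.11.15 (matplotlib 3.10.9).

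The 56 genes, the other lists and the tests were chosen with earlier results of these data known. Values in every sample are given for genes at an unadjusted p of 0.05 or less or with groups that do not overlap, for the genes of highest and lowest level in each role, for the 3 of smallest absolute difference and for the 8 other pathway genes of lowest p. GEMIN2 was added after its values were seen, since its interval nearly excluded 0. The names CPSF3L, ASUN, VWA9, SKIV2L2 and PAPD5, listed beside the current names of the same genes, matched no entry. The alternatives were another pseudocount, other filters on low values, 3 other scalings, removal of the length trend, a replicate block, eBayes without the trend, array weights, TPM summed per symbol and each sample left out in turn.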

Additional observations from a re-analysis of the deposited data

Results flagged for a closer look

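In 2 of the 112 groups of 4 values (56 genes in 2 groups of samples), 1 sample lay far from the others by Dixon's criterion, where chance alone flags about 1 in 20 groups, or 5.6 of 112. INTS12, an Integrator subunit with a PHD finger, was 4.52 in Siglec-XII replicate 4 and 4.39 to 4.41 in the other Siglec-XII samples, on the log2(TPM + 1) scale. LSM12 was 6.50 in Siglec-XII replicate 3 and 6.42 to 6.43 in the others. Both genes overlapped between the groups.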

How the results depend on the processing

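None of the 56 genes passed an adjusted p under 0.05 under any of the 19 alternatives, and the lowest adjusted p was 0.0774, for HEXIM1 with a mean of at least 5 TPM. HEXIM1 kept its direction in all 19, with a difference of 0.16 to 0.25 and an adjusted p of up to 0.305, and NCBP1 did so with 0.11 to 0.22 and an adjusted p of 0.0923 to 0.408. The differences ran over the alternatives from 0.14 to 0.26 for INTS11, 0.19 to 0.33 for SNAPC2, 0.09 to 0.21 for MEPCE, 0.06 to 0.16 for INTS3, -0.37 to -0.15 for LSM8 and -0.23 to -0.11 for EXOSC8. Of the other 48 genes, 22 changed sign under at least 1 alternative. The 8 genes named here were picked from the same samples for a low p or for groups that do not overlap. Most alternatives reuse these values, so their kept direction follows largely from that choice and is not independent support.

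The median difference over the 56 genes, 0.04, was -0.02 with quantile normalization, -0.02 with equal upper quartiles, -0.0023 without mitochondrial and the 100 most abundant genes and -0.01 with the length trend removed, where the median over all entries was 0.01, 0.01, 0.03 and 0.01. Genes with a higher mean numbered 23, 24, 27 and 26 in place of 39. Those at an unadjusted p of 0.05 or less, 5 higher and 2 lower, became 2 and 6, 2 and 5, 3 and 3, and 2 and 5, and 5 and 0 in eBayes without the trend. As shares of the 56 these were 14.3%, 12.5%, 10.7%, 12.5% and 8.93%, against 12.6%, 12.9%, 12.6%, 12.3% and 15.6% of all entries. These shares take both directions together, and shares of all entries by direction were not taken with these settings. With each sample left out, the number of genes at this p ran from 3, without Siglec-XII replicate 2, to 8, where 12.7% to 19.4% of all entries stood at it. The genes without overlap numbered 4 to 7, where 13.4% to 19.3% of all entries did not overlap with fewer samples. Of the other pathway genes at an unadjusted p of 0.05 or less, 10 became 5 in eBayes without the trend and 5 to 10 with a sample left out. They were 5 where replicate 1 of either group was left out and 6 without Siglec-XII replicate 2. The shares of all entries are those just given for the same settings. The cause of these changes was not tested.

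The replicate block gave 0 calls among the 56 genes, with 7 higher and 3 lower at an unadjusted p of 0.05 or less, 10 in all or 17.9% against 15.8% of all entries, and 6 of the other pathway genes. Samples with the same number did not deviate together (correlations of 0.04, 0.028, -0.074 and 0.059), so the numbers were not taken as pairing. Over all entries tested, 101 passed in the report, 69 with the block, 54 in eBayes without the trend, 51 with no filter on low values, and 49 to 159 with a sample left out, a change of over 1.5 times for each of the 8 samples. The counts behind each value are unknown, so no error from counting could be given. The sums of the RNA families and the level of LSM8 minus that of LSM1 were also recomputed without each sample in turn, a choice made after seeing the data.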
